A study of Rattus norvegicus with 6 samples.

Results

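In Rat-1 cells, 10 genes of the heat shock protein and chaperone network were described: Hspb1, Hspa8, Hsp90aa1, Hsp90ab1, Hspd1, Hspe1, Hsph1, Dnajb1, Dnaja1 and Hspa4. They were taken by symbol from the deposited gene table, which holds 17143 genes, and all 10 were found and had reads in every library. Rat-1 is an established rat fibroblast line, and the cells were lysed 4 h after 25000 of them per well had been seeded on extracellular matrix (ECM). The matrix had been remodelled by matrix metalloproteinase 13 (MMP13, 2 libraries), had been remodelled by matrix metalloproteinase 1 (MMP1, 2 libraries), or was native with no protease treatment (2 libraries). Both enzymes are secreted collagenases. Only cells that adhered were profiled, by 3' end RNA sequencing, so in these bulk samples fewer cells of a kind and less RNA per cell cannot be told apart. The design asked how the transcription of fibroblasts differs on a matrix degraded by either protease. The labels call the samples duplicates without saying whether they were separate cultures, so p-values reflect the scatter of these libraries alone, and that scatter may be technical.

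Heat shock proteins are molecular chaperones: they bind unfolded or partly folded proteins and keep them from aggregating. HSP70 proteins work in cycles of ATP hydrolysis, J-domain proteins deliver clients to them and start hydrolysis, and HSP110 proteins release the nucleotide to end the cycle. HSP90 then matures kinases, receptors and other signalling proteins, and small heat shock proteins hold unfolded clients without ATP. In animal cells many of these genes are transcribed by heat shock factor HSF1, which binds heat shock elements, made of inverted repeats of nGAAn. Of the 10 genes, Hspd1 and Hspe1 encode the chaperonin and co-chaperonin of the mitochondrial matrix; the protein products of the other 8 act mainly in the cytosol and nucleus.

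Promoter sequences are shown because shared heat shock elements are the best known regulatory feature of the family and because Hspd1 and Hspe1 share one promoter region. They come from the RefSeq table of build GRCr8, which covers 250 bases before to 50 bases after each gene's start. Symbols matched for 9 of the 10 genes; Hsp90aa1 was not matched. Positions are counted from +1 at the start site. Each motif was searched on both strands: elements of 2 repeat units (GAANNTTC or TTCNNGAA, each its own reverse complement) and of 3 units (GAANNTTCNNGAA or its reverse complement TTCNNGAANNTTC, which contain the 2-unit motifs). The Hspb1 promoter at chr12:26432252-26432551 on the minus strand follows, 5′ to 3′, with 2-unit matches in capitals.
Hspb1: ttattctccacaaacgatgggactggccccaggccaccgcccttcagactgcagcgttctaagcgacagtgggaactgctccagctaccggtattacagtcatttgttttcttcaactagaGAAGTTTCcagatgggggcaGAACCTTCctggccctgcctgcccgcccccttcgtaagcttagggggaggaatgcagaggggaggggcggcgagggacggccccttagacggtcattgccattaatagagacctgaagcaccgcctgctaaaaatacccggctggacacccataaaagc

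The 2 matches in Hspb1 lie at -129 to -122 and at -109 to -102, and no 3-unit match was found in this window. The lines below give the stretches around the 3-unit matches of the other genes, with the matched bases in capitals. Hspa8 has 2 of them (chr8:50080293-50080321 and chr8:50080451-50080479, plus strand). Hsph1 (chr12:10427324-10427352, plus strand) and Dnaja1 (chr5:60638405-60638433, plus strand) have 1 each, and that of Dnaja1 lies after the start site, at 10 to 22. Hspe1 (chr9:64084256-64084285, plus strand) has 2 overlapping ones. For Dnajb1 (chr19:41431134-41431163, minus strand), which has no 3-unit match, the 2-unit match nearest to the start site is shown.
Hspa8 distal: gcgagcgtGAAAGTTCCAGAAcgctgcgg
Hspa8 proximal: cggaacccTTCTGGAAGGTTCtaagacag
Hsph1: gccgcagaTTCTGGAAAGTTCtcctcagt
Dnaja1: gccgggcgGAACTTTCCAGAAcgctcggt
Hspe1: gctcggTTCTAGAACCTTCCGGAAggcccc
Dnajb1: cgggaggggcgGAAGGTTCtggagggctgg

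Hspd1 is read from the minus strand and Hspe1 from the plus strand, with start sites 290 bases apart, so their windows overlap by 211 bases and hold the same element. In Hspe1 it spans -65 to -48, and in Hspd1 the same bases span -242 to -225. Dnajb1 has a pair of 2-unit matches, at -11 to -4 and at 18 to 25. No match was found in the windows of Hsp90ab1 and Hspa4. In all, 7 of the 9 windows held a 2-unit match and 5 held a 3-unit match. Among all 33469 promoters of the table, 15.9% held a 2-unit match and 0.798% a 3-unit match. The genes were chosen as a heat shock family, so these shares are a description, and a match is not evidence of binding in these cells.

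Levels are given in units, the reads of a gene divided by its library's size factor as deposited, and 1 read was worth 0.735 to 1.68 units. The libraries held 161817 to 362122 reads each, which limits the genes of low level. The 10 genes together took 0.514% ± 0.031 of reads on MMP13-treated, 0.514% ± 0.0096 on MMP1-treated and 0.503% ± 0.042 on native matrix (SD, n = 2 each), so the sum differed by less than the spread between native libraries. All 6 fibroblast markers were detected (Col1a1, Col1a2, Col3a1, Vim, Thy1 and Pdgfrb), at a summed 3650 to 4482 units per library. Leukocyte, endothelial, epithelial, muscle and erythroid lists took at most 0.0102% of reads each, with Epcam and Alas2 at 0 in every library. The 4 leukocyte markers summed to 18.4 to 18.5 units on MMP13-treated, 24.8 to 27.6 on MMP1-treated and 10.6 to 15.8 on native matrix, and their part in the results was not tested.

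**Figure D1:**
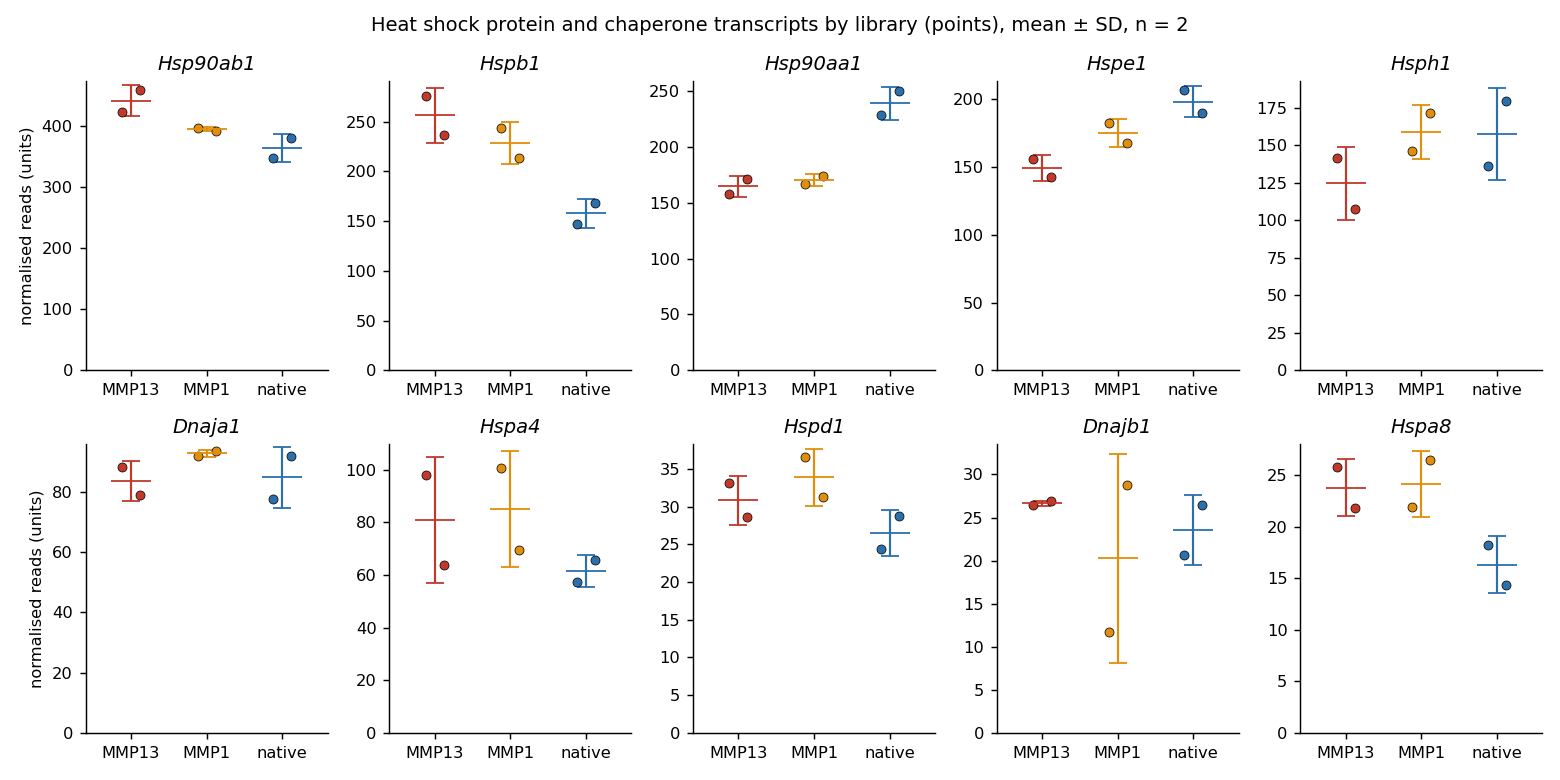
Level of each of the 10 genes, in normalised reads (units), on MMP13-treated, MMP1-treated and native matrix, ordered by mean level; points are libraries and bars are mean ± SD (n = 2). Hspb1 is higher and Hsp90aa1 lower in all 4 treated libraries than in both native libraries, while Hsph1 and Dnaja1 overlap between treated and native libraries.

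Hsp90ab1 was the most abundant of the 10 (mean 400.2 units over 6 libraries), above Hspb1 (214) in every library. Hspb1, Hsp90aa1 (191), Hspe1 (174) and Hsph1 (147) followed, each pair of neighbours with overlapping ranges. Dnaja1 (87.1) lay below Hsph1 in 6 of 6 libraries and did not separate from Hspa4 (75.8). Hspd1 (30.4), Dnajb1 (23.5) and Hspa8 (21.4) formed the lower end, with overlapping ranges. Reads of 3' end libraries are counted per transcript end and were not divided by length. The RefSeq table names 33 pseudogenes for Hspa8, 23 for Hsp90ab1, 20 for Hspd1, 16 for Hsp90aa1, 4 for Dnaja1, 1 for Hspe1 and 0 for the other 4 genes. None of these pseudogenes has an entry of its own in the deposited table. How reads that match several copies were counted is not given in the sources used here, so the levels of these 6 genes are uncertain; the part of such reads was not tested.

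On MMP13-treated matrix 1 of the 10 genes passed the test against native matrix, Hspb1, and 0 were lower. Among all 7284 genes tested, 0.412% passed (limma on log2(units + 1), Benjamini-Hochberg adjusted p under 0.05, the test behind every adjusted p of a gene below unless another is named). Hspb1 encodes the small heat shock protein HSP27 (HSP25 in rodents), an ATP-independent holdase that also binds actin filaments. It had 276 and 237 units in the MMP13 libraries, 244 and 214 units in those on MMP1-treated matrix, and 147 and 168 units in the native ones. Every treated library was above both native libraries. On MMP13-treated matrix it rose 1.62-fold (log2 fold 0.70, SE 0.19, 95% interval 0.33 to 1.06, adjusted p = 0.0499). On MMP1-treated matrix its log2 fold was 0.53 (SE 0.19, 95% interval 0.17 to 0.90), which did not pass (adjusted p = 0.248). With both treated matrices averaged against native, the log2 fold was 0.62 (SE 0.16, adjusted p = 0.0339). There 1 of the 10 genes passed, against 0.645% of all genes. The difference between MMP13-treated and MMP1-treated matrix was 0.16 (95% interval -0.20 to 0.53).

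The call of Hspb1 lay at the threshold. On recovered reads edgeR (adjusted p = 0.0235) and DESeq2 (adjusted p = 0.0325) also called Hspb1 and no other of the 10. DESeq2 gave an adjusted p to 7 of them. In all, edgeR called 0.7% of the 4574 genes it tested. DESeq2 called 3.03% of the 858 genes to which it gave an adjusted p. For the averaged contrast both called Hspb1 alone as well, against 1.16% of the 4574 genes by edgeR and 4.2% of 858 by DESeq2. Besides the fits that left out 1 library there were 12 alternatives, of which the fit of only the groups compared used no MMP1 library. Of these 12 alternatives 4 made the call, with adjusted p between 0.0235 and 0.827, the highest without the intensity trend. Leaving out any 1 of the 6 libraries ended it (adjusted p 0.0653 to 0.734, log2 fold 0.59 to 0.81). For the averaged contrast 9 of those 12 alternatives made the call, and again 0 of the 6 fits that left out a library. Its fold had the same sign in all of them, between 0.52 and 0.71. Among the 12, the fit of only the groups compared was the reported fit itself for this contrast, so its call was fixed in advance. Reads of Rn45s, the ribosomal RNA precursor entry, took 0.83% ± 0.20 on MMP13-treated, 0.80% ± 0.19 on MMP1-treated and 0.320% ± 0.038 on native matrix (SD, n = 2 each), in the same direction as Hspb1. Its part in the result was not tested.

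**Figure D2:**
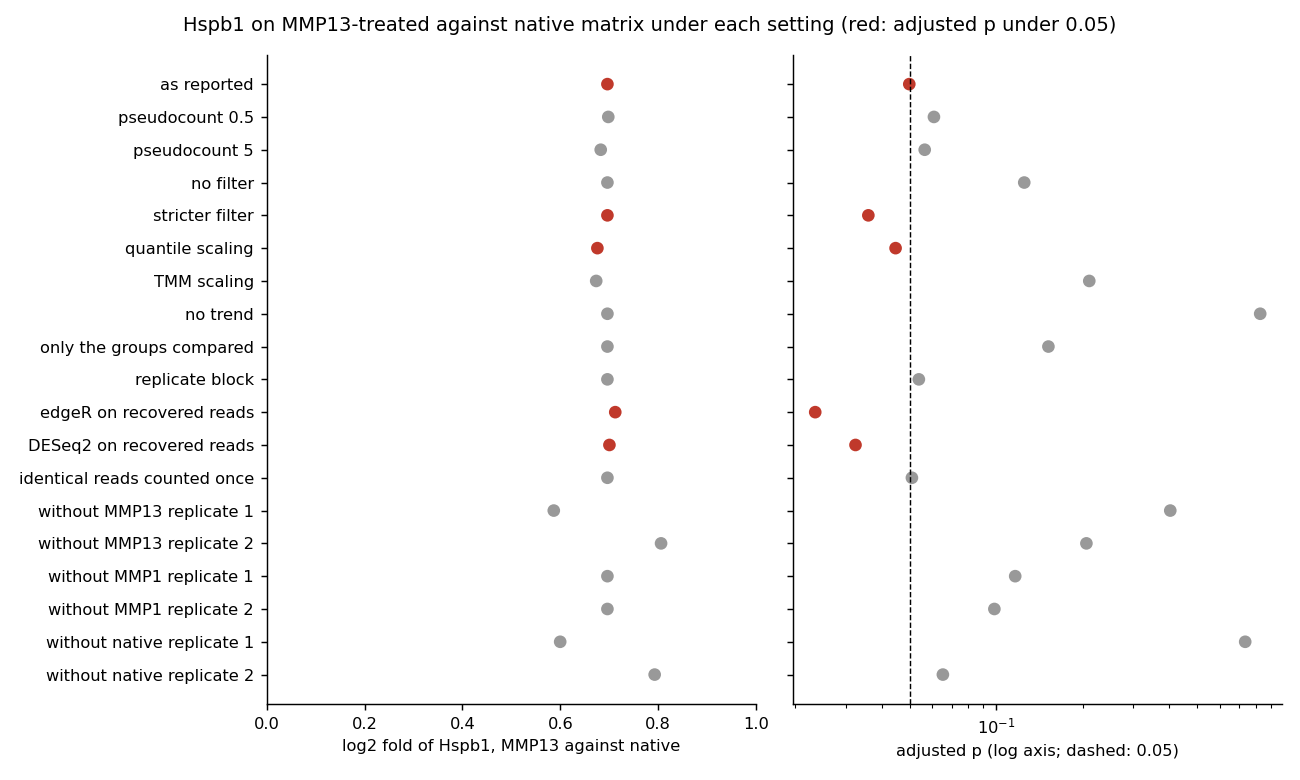
Log2 fold of Hspb1 on MMP13-treated against native matrix (left) and its adjusted p on a log axis (right) as reported and under each of 18 alternatives; red points have an adjusted p under 0.05. The fold stays between 0.59 and 0.81 while the adjusted p runs from 0.0235 to 0.827.

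Among the 1066 other tested genes with a mean of at least 50 units, the pattern most like that of Hspb1 over the 6 libraries was that of Sqstm1, which encodes the autophagy receptor p62. The measure was the root mean square difference of centred log2 values, which was 0.0234 for Sqstm1 and had a median of 0.372 over all candidates. Sqstm1 had 376 and 312 units on MMP13-treated, 329 and 294 on MMP1-treated and 204 and 227 on native matrix. The next were the predicted gene LOC297756 (0.0581) and the AP-1 subunit gene Junb (0.0684). Hspb1 was taken for its smallest p against native matrix, so its nearest patterns also rise on treated matrix. On MMP13-treated matrix Sqstm1 (adjusted p = 0.0249) and Junb (adjusted p = 0.0263) passed against native, and LOC297756 did not (adjusted p = 0.484). For Hsp90ab1, the most abundant of the 10, the nearest patterns were those of Sparc (0.0249), which encodes a collagen-binding matricellular protein, of Atp6v0c (0.0471), a subunit of the vacuolar proton pump, and of the entry RGD1304587 (0.0596). These likenesses are a description of 6 libraries.

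Hsp90aa1 and Hsp90ab1 encode the cytosolic HSP90 paralogs, of which the alpha form (Hsp90aa1) is the more stress-inducible and the beta form (Hsp90ab1) the more constitutive. Hsp90aa1 had 158 and 171 units on MMP13-treated, 166 and 174 on MMP1-treated and 229 and 250 on native matrix. Every treated library was below both native libraries. Its log2 fold was -0.54 on MMP13-treated (SE 0.19, adjusted p = 0.301) and -0.49 on MMP1-treated matrix (SE 0.19, adjusted p = 0.386), and neither passed. These SEs are those of genes of like level. From the gene's own libraries the SE of either fold was 0.075 on 3 degrees of freedom, which is itself uncertain. Such own SEs were larger than those used for Hsph1 (0.25 against 0.21), Dnajb1 (0.52 against 0.46) and Hspa4 (0.34 against 0.28). For the other genes they were smaller. Averaged over both treated matrices, the log2 fold of Hsp90aa1 was -0.51 (95% interval -0.84 to -0.18). Its adjusted p was 0.169 by limma, 0.0849 by edgeR and 0.0511 by DESeq2. In 18 alternatives this averaged fold lay between -0.57 and -0.45, with adjusted p from 0.0511 to 0.891. Hsp90ab1 had 424 and 460 units on MMP13-treated, 397 and 393 on MMP1-treated and 348 and 380 on native matrix. Every treated library was above both native ones, by log2 folds of 0.28 (adjusted p = 0.630) on MMP13-treated and 0.12 (adjusted p = 0.879) on MMP1-treated matrix, which did not pass.

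The share of Hsp90aa1 in the reads of both HSP90 paralogs does not depend on the scaling of libraries. It was 27.2% and 27.1% in the MMP13 libraries, 29.5% and 30.7% in those on MMP1-treated matrix, and 39.7% and 39.6% in the native ones. These shares rest on 376 to 835 reads each. The exact (Clopper-Pearson) 95% intervals of the treated libraries reached at most 35.1%, and those of the native libraries began at 35.2% and 36.3%; they cover counting error only. Averaged over 4 treated libraries the share was 28.6% ± 1.8 (SD, n = 4), against 39.7% ± 0.015 in native libraries (SD, n = 2). The difference was -11.0 percentage points (-11.7 to -10.5 with any 1 library left out). The SD of 0.015 is far below the width of the native counting intervals, so it understates the uncertainty of the native share. A two-sided exact permutation test of 4 against 2 libraries gave p = 0.0667, the smallest p this design allows, and 0.133 adjusted over the 4 gene pairs compared in this way. With 2 against 2 libraries the smallest p is 0.333. The 4 pairs were formed by shared role after library values had been seen.

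**Figure D3:**
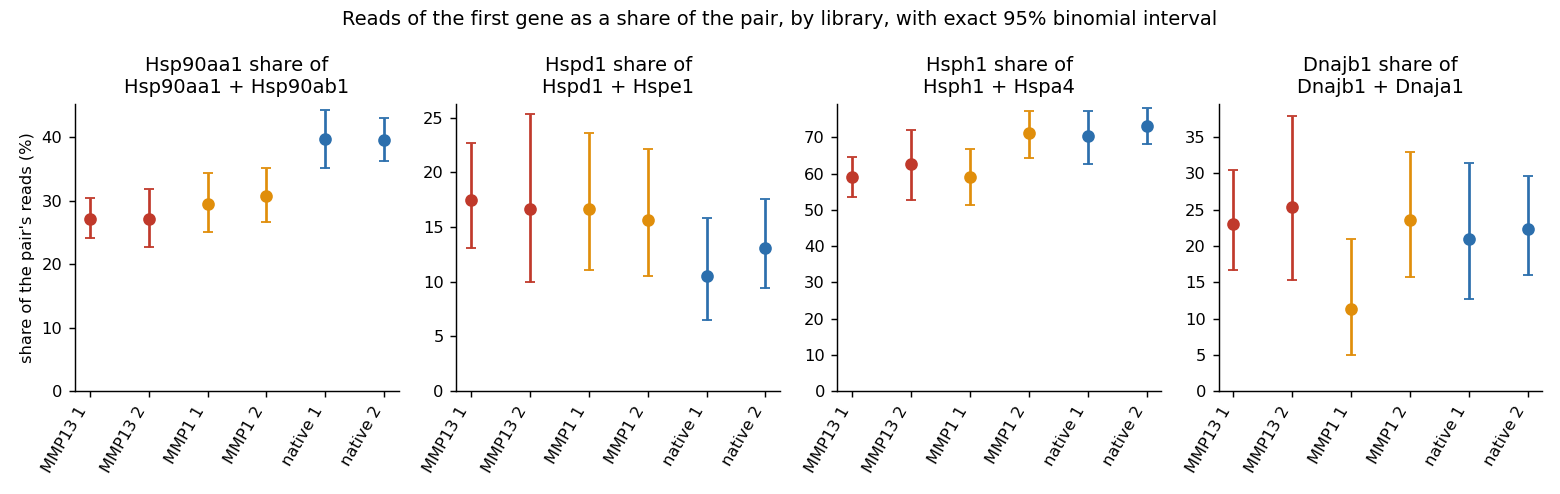
Reads of the first gene as a percentage of the reads of both genes of a pair, for each library, with exact 95% binomial intervals. For Hsp90aa1 and Hsp90ab1 the 4 treated libraries lie between 27.1% and 30.7% and the native libraries at 39.7% and 39.6%; for Dnajb1 and Dnaja1 the groups overlap.

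Hspd1 and Hspe1, which share the promoter region shown above, encode the barrel (HSP60) and the lid (HSP10) of the mitochondrial chaperonin. Hspe1 had 156 and 143 units on MMP13-treated, 183 and 168 on MMP1-treated and 207 and 190 on native matrix. All 4 treated libraries were below both native ones, with log2 folds of -0.41 (95% interval -0.80 to -0.02, adjusted p = 0.589) on MMP13-treated and -0.18 (adjusted p = 0.857) on MMP1-treated matrix, and neither passed. Hspd1 had 33.1 and 28.5 units on MMP13-treated, 36.5 and 31.2 on MMP1-treated and 24.3 and 28.7 on native matrix. MMP13 and native libraries overlapped for Hspd1, both MMP1 libraries lay above both native ones, and its log2 folds of 0.21 on MMP13-treated (adjusted p = 0.931) and 0.34 on MMP1-treated matrix (adjusted p = 0.872) did not pass. The share of Hspd1 in the reads of both was 16.6% ± 0.76 over 4 treated libraries and 11.8% ± 1.8 over 2 native ones. The two-sided exact permutation p was 0.0667, the smallest possible, and 0.133 adjusted over the 4 pairs. Counting intervals overlapped between treated and native libraries, with 102 to 290 reads per pair.

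Among the HSP70 genes, Hspa8, the constitutive cytosolic HSC70, had 25.7 and 21.8 units on MMP13-treated, 21.9 and 26.4 on MMP1-treated and 18.2 and 14.3 on native matrix. The 4 treated libraries were above both native ones, yet these values rest on 13 to 35 reads per library. Its log2 folds were 0.52 (95% interval -0.40 to 1.45, adjusted p = 0.843) on MMP13-treated and 0.54 (95% interval -0.38 to 1.47, adjusted p = 0.791) on MMP1-treated matrix. Both intervals include 0. They rest on an SE of 0.47 from genes of like level. The gene's own libraries gave 0.19 on 3 degrees of freedom, which is itself uncertain at so few reads. Hspa4 and Hsph1 encode HSP110 proteins, nucleotide exchange factors of HSP70. Hspa4 had 97.8 and 63.8 units on MMP13-treated, 101 and 69.6 on MMP1-treated and 57.1 and 65.7 on native matrix. In each treated group the first replicate was far above the second, and MMP13 and native libraries overlapped (log2 fold 0.36, adjusted p = 0.804). On MMP1-treated matrix its log2 fold was 0.45 (adjusted p = 0.716). The fold on MMP13-treated matrix was 0.058 without MMP13 replicate 1 and 0.67 without MMP13 replicate 2. That on MMP1-treated matrix was 0.18 without MMP1 replicate 1 and 0.71 without MMP1 replicate 2.

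Hsph1 had 142 and 107 units on MMP13-treated, 146 and 172 on MMP1-treated and 136 and 180 on native matrix, so all groups overlapped with the native range. Its log2 fold was -0.34 on MMP13-treated matrix (95% interval -0.76 to 0.08, adjusted p = 0.738). On MMP1-treated matrix it was 0.02 (95% interval -0.40 to 0.44, adjusted p = 0.991), with the sign turned by TMM scaling (-0.040) and by DESeq2 (-0.011). The share of Hsph1 in the reads of Hsph1 and Hspa4 was 63.1% ± 5.6 over 4 treated libraries and 71.8% ± 2.0 over 2 native ones. The groups overlapped (two-sided exact permutation p = 0.200, and 0.267 adjusted over the 4 pairs).

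The J-domain genes Dnajb1, which encodes HSP40, and Dnaja1 both encode co-chaperones of HSP70. Dnajb1 had 26.5 and 26.9 units on MMP13-treated, 11.7 and 28.8 on MMP1-treated and 20.7 and 26.4 on native matrix. The gap between MMP13 and native libraries was smaller than the worth of 1 read, and the MMP1 libraries differed by 8 against 24 reads. The log2 folds of Dnajb1 were 0.18 (95% interval -0.72 to 1.08) on MMP13-treated and -0.33 (95% interval -1.22 to 0.57) on MMP1-treated matrix, with adjusted p = 0.943 for MMP13 and 0.898 for MMP1. Without MMP1 replicate 1 the log2 fold on MMP1-treated matrix was 0.29. Dnaja1 had 88.2 and 78.9 units on MMP13-treated, 92.0 and 93.6 on MMP1-treated and 77.8 and 92.1 on native matrix. Its log2 fold was -0.02 on MMP13-treated matrix (95% interval -0.53 to 0.49, adjusted p = 0.993). On MMP1-treated matrix it was 0.13 (95% interval -0.38 to 0.64, adjusted p = 0.939). The share of Dnajb1 in the reads of both was 20.8% ± 6.4 over 4 treated and 21.6% ± 0.92 over 2 native libraries (two-sided exact permutation p = 1, also after adjustment).

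**Figure D4:**
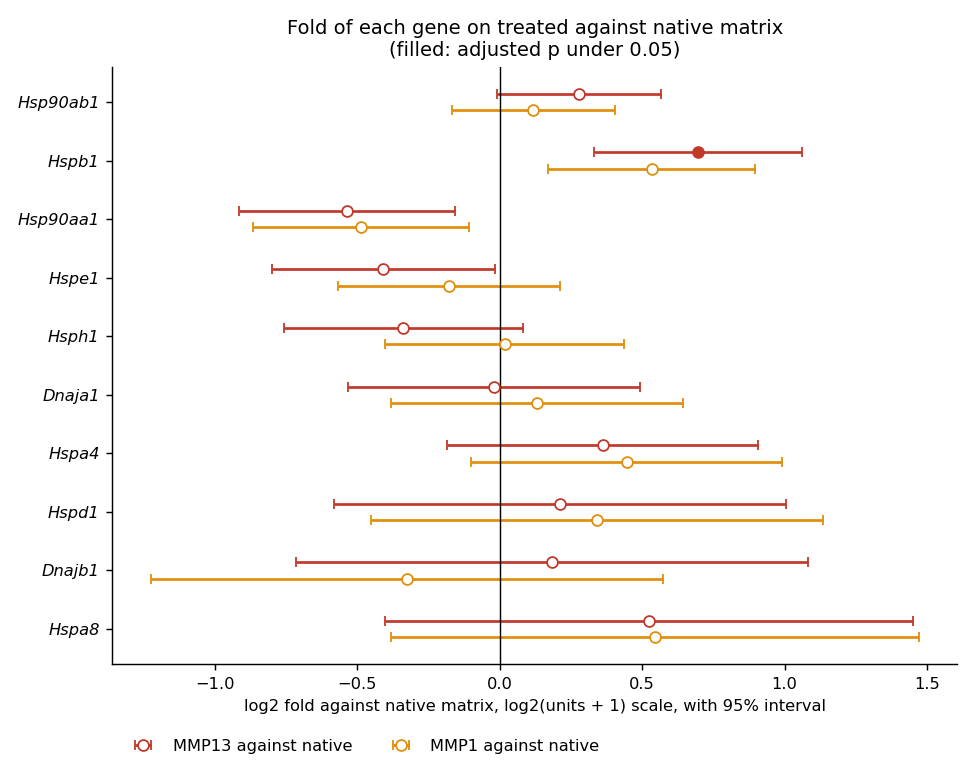
Log2 fold (log2(units + 1) scale) of each of the 10 genes against native matrix with its 95% interval, for MMP13-treated matrix (red) and MMP1-treated matrix (orange); filled points have an adjusted p under 0.05. Hspb1 lies highest among the abundant genes at 0.70 and 0.53, Hsp90aa1 lowest on MMP13-treated matrix at -0.54, and only Hspb1 on MMP13-treated matrix is filled.

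Across the 10 genes the folds went both ways. On MMP13-treated matrix 6 had positive and 4 negative log2 folds, from -0.54 to 0.70, with a median of 0.20, against a median of 0.01 over all 7284 genes. On MMP1-treated matrix 7 were positive and 3 negative, from -0.49 to 0.54, with a median of 0.13, against 0.02 over all genes. By direction, 1 of the 10 passed as higher on MMP13-treated matrix (0.275% of all genes) and 0 as lower (0.137%). On MMP1-treated matrix 0 of the 10 passed (0.151% of all genes), with 0 higher (0.137%) and 0 lower (0.0137%). There edgeR also called 0 of the 10 (0.219% of its 4574 genes) and DESeq2 0 (0.00679% of its 14735 genes). At an unadjusted p under 0.05, 3 of the 10 differed on MMP13-treated matrix (8.05% of all genes), 2 on MMP1-treated matrix (8.24%) and 2 with both averaged (9.14%).

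Library values without overlap were common in the whole table. MMP13 and native libraries did not overlap for 6 of the 10 genes (37.5% of all genes), 4 of them higher (18.9%) and 2 lower (18.6%). MMP1 and native libraries did not overlap for 7 (38.4%), 5 of them higher (19.6%) and 2 lower (18.8%). For 5 genes all 4 treated libraries lay on the same side of both native ones (17.6% of all genes). Hspb1, Hspa8 and Hsp90ab1 were the 3 that lay above (8.91%), and Hsp90aa1 and Hspe1 the 2 that lay below (8.7%). Both comparisons share the native libraries.

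MMP13-treated and MMP1-treated matrix were also compared with each other. By limma 0 of the 10 genes passed (0.0412% of all genes), and 0 had an unadjusted p under 0.05 (5.22%). By edgeR (0.0437% of its 4574 genes) and DESeq2 (0.00679% of its 14735 genes) 0 passed as well. The libraries did not overlap for 4 genes (31.4% of all genes), with Hsp90ab1 higher (15.9%) and Hspe1, Hsph1 and Dnaja1, 3 genes, lower (15.4%). The log2 folds ran from -0.36 for Hsph1 (95% interval -0.77 to 0.06) to 0.51 for Dnajb1 (95% interval -0.39 to 1.41). That of Hsp90ab1 was 0.16 (95% interval -0.13 to 0.45) and that of Hsp90aa1 -0.05 (95% interval -0.43 to 0.33).

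The stress-inducible HSP70 genes, the classical readout of a heat shock response, had few reads in all groups. Hspa1a had 1 read over all 6 libraries, and Hspa1b had 1 or 2 reads in each and 10 in total. Since these are near-identical copies, and how reads that match several copies were counted is not given, both their split and their total are uncertain. Neither reached the minimum for testing, and 3 reads, the limit that a count of 0 allows, make 2.21 to 5.04 units. Hspa4l, a further HSP110 gene, had 8 and 4 reads in the MMP13 libraries, 1 and 3 in the MMP1 libraries and 0 in both native libraries. It did not pass (adjusted p = 0.606 for MMP13 against native), and no fold is given at so few reads.

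Beside the 10 genes, 10 lists of further chaperone genes, with 92 genes in all, were read; 89 were in the table and 76 were tested. By limma 0 of the 76 passed on MMP13-treated (0.412% of all genes) and 0 on MMP1-treated matrix (0.151% of all genes), while 5 had an unadjusted p under 0.05 in each (6.58%, against 8.05% and 8.24% of all genes). The edgeR fit tested 4574 genes, 63 of them list genes. Of the list genes 1 passed on MMP13-treated matrix, Serpinh1 (0.7% of the 4574), and 0 on MMP1-treated matrix (0.219%). DESeq2 called 0 in both (3.03% of 858 and 0.00679% of 14735 genes with an adjusted p). On MMP13-treated matrix it gave an adjusted p to 858 genes, 22 of them list genes, and Hspb8 and Bag1 had none. Among small heat shock proteins, Hspb8, which acts with BAG3 in selective autophagy, had 66.9 and 67.2 units on MMP13-treated, 51.1 and 70.8 on MMP1-treated and 35.3 and 30.9 on native matrix. Its treated libraries were all above its native ones, as for Hspb1, with log2 folds of 1.00 on MMP13-treated (SE 0.32, adjusted p = 0.194) and 0.85 on MMP1-treated matrix (SE 0.32, adjusted p = 0.347) that did not pass. Cryab, which encodes alpha-B-crystallin, had a log2 fold of 0.15 on MMP13-treated (adjusted p = 0.949) and of -0.43 on MMP1-treated matrix (adjusted p = 0.811). Of the 7 further small heat shock genes 3 were tested, with a median log2 fold of 0.15 on MMP13-treated and -0.07 on MMP1-treated matrix.

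Of 8 HSP70 nucleotide exchange and binding factors, Bag1, an exchange factor, had 24.3 and 20.2 units on MMP13-treated, 38.0 and 34.8 on MMP1-treated and 72.9 and 40.7 on native matrix. All 4 treated libraries were below both native ones, with a log2 fold of -1.26 (SE 0.38, adjusted p = 0.120) on MMP13-treated matrix and -0.57 (adjusted p = 0.733) on MMP1-treated matrix. St13, which encodes the HSP70-interacting protein HIP, had a log2 fold of -0.72 on MMP13-treated (adjusted p = 0.723) and of 0.48 on MMP1-treated matrix (adjusted p = 0.811). Of 15 HSP90 co-chaperones, Ptges3, the co-chaperone p23, had 96.3 and 78.9 units on MMP13-treated, 78.9 and 62.4 on MMP1-treated and 102 and 125 on native matrix. Its log2 folds of -0.37 on MMP13-treated (adjusted p = 0.774) and -0.68 on MMP1-treated matrix (adjusted p = 0.347) did not pass. Nor did those of the immunophilin Fkbp4, at -0.46 for MMP13 (adjusted p = 0.756) and 0.24 for MMP1 (adjusted p = 0.890). The list median was -0.25 on MMP13-treated and 0.11 on MMP1-treated matrix. Of 15 further J-domain genes 12 were tested, with medians of -0.18 for MMP13 and -0.23 for MMP1. Dnaja4 had a log2 fold of -0.62 for MMP13 (adjusted p = 0.892) and -1.48 for MMP1 (adjusted p = 0.509). Dnajb4 had -0.77 for MMP13 (adjusted p = 0.630) and -0.48 for MMP1 (adjusted p = 0.780).

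The heat shock factor genes themselves were of low level. Hsf1 had 25.0 and 11.8 units on MMP13-treated, 10.2 and 6.0 on MMP1-treated and 17.0 and 18.9 on native matrix, with log2 folds of -0.05 for MMP13 (adjusted p = 0.992) and -1.09 for MMP1 (adjusted p = 0.632). Hsf2 had 12.5 and 6.72 units on MMP13-treated, 19.0 and 13.2 on MMP1-treated and 26.7 and 14.3 on native matrix, with log2 folds of -1.01 for MMP13 (adjusted p = 0.662) and -0.29 for MMP1 (adjusted p = 0.938). Neither gene passed. The 8 subunit genes of the cytosolic chaperonin CCT, which folds actin and tubulin, had median log2 folds of -0.16 for MMP13 and -0.13 for MMP1. Among them Cct8 had 0.67 for MMP13 (adjusted p = 0.410) and -0.04 for MMP1 (adjusted p = 0.988). Cct7 had -0.42 for MMP13 (adjusted p = 0.688) and -0.33 for MMP1 (adjusted p = 0.755). Prefoldin, which hands clients to CCT, had 4 of 6 genes in the table with medians of 0.18 for MMP13 and 0.36 for MMP1. Pfdn2 had 0.45 for MMP13 (adjusted p = 0.810) and 0.65 for MMP1 (adjusted p = 0.659), and Pfdn1 0.03 for MMP13 (adjusted p = 0.992) and 0.28 for MMP1 (adjusted p = 0.774). Of 9 further HSP70 and HSP110 genes 4 were tested, among them Hspa13, with -0.65 for MMP13 (adjusted p = 0.772) and -0.24 for MMP1 (adjusted p = 0.935).

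Of 8 mitochondrial genes 7 were in the table, with medians of 0.05 for MMP13 and 0.18 for MMP1. Grpel1, the exchange factor of mitochondrial HSP70, had a log2 fold of -0.65 for MMP13 (adjusted p = 0.624) and -0.28 for MMP1 (adjusted p = 0.878). Its paralog Grpel2 had 1.43 for MMP13 (adjusted p = 0.779) and 0.93 for MMP1 (adjusted p = 0.849). At 1.22 to 8.40 units, both folds of Grpel2 rest on few reads. Grpel2 reached the minimum of 5 units in treated libraries only, so the filter itself favoured higher treated values. The 12 endoplasmic reticulum genes had medians of 0.22 for MMP13 and -0.05 for MMP1. Among them the collagen chaperone gene Serpinh1 (HSP47) had 791 and 673 units on MMP13-treated, 686 and 673 on MMP1-treated and 503 and 567 on native matrix. It rose with both treated matrices averaged (log2 fold 0.40, SE 0.11, adjusted p = 0.038), where it was the 1 gene of the 76 that passed (0.645% of all genes). It did not pass on MMP13-treated (0.45, adjusted p = 0.0584) or MMP1-treated matrix alone (0.35, adjusted p = 0.274). For the averaged contrast the fit of only the groups compared was the reported fit itself, so its call was fixed in advance. With that fit counted, 9 of 12 alternatives that used all libraries made the averaged call, edgeR (adjusted p = 0.0391) and DESeq2 (adjusted p = 0.0479) among them. Leaving out any 1 library ended it, with log2 folds of 0.31 to 0.48 and adjusted p of 0.0501 to 0.997. Calr, the calcium-binding lectin chaperone calreticulin, had -0.04 for MMP13 (adjusted p = 0.950) and -0.24 for MMP1 (adjusted p = 0.472).

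**Figure D5:**
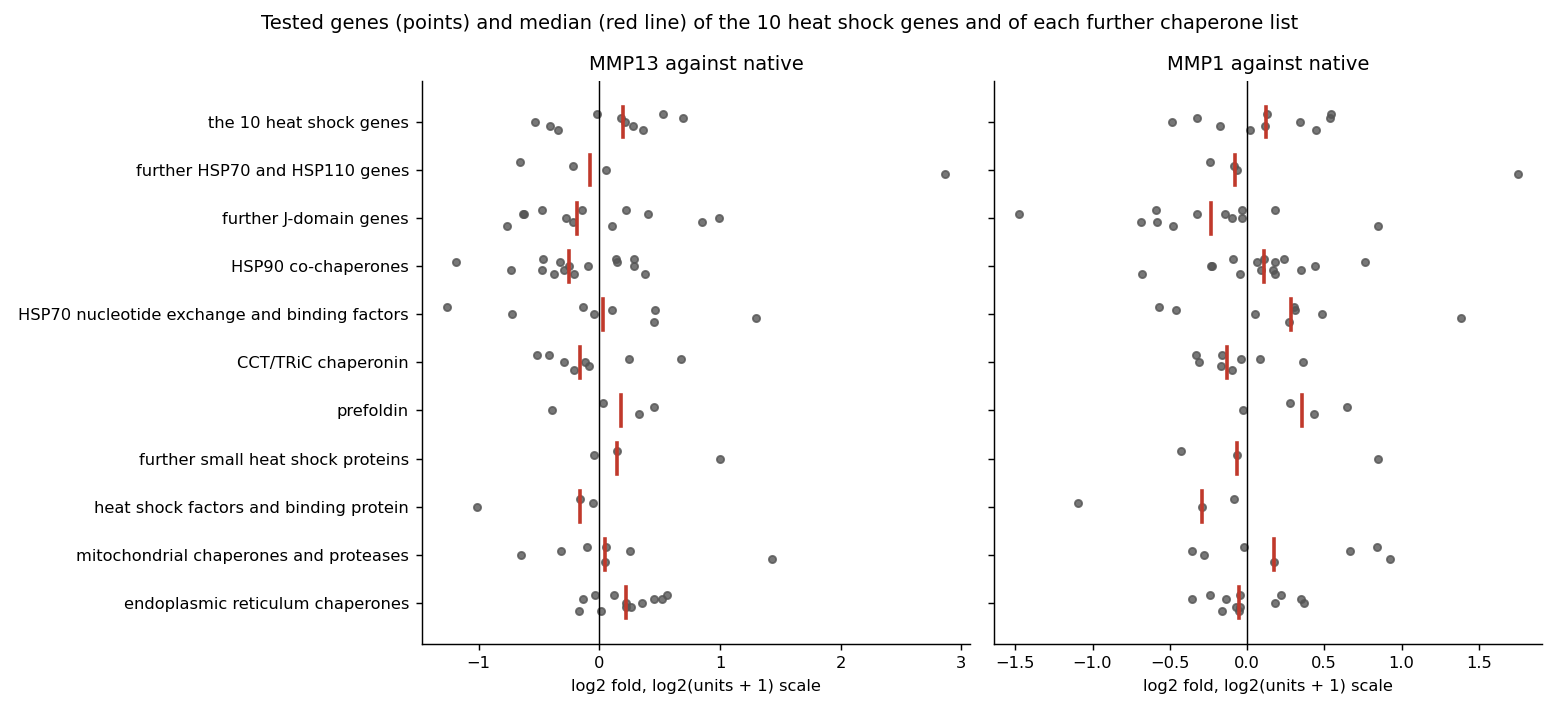
Log2 folds (log2(units + 1) scale) on MMP13-treated (left) and MMP1-treated (right) against native matrix for the tested genes of the 10 heat shock genes and of each further chaperone list; points are genes and red lines are medians. The 10 genes have medians of 0.20 and 0.13, and the farthest point in both panels is Hspa4l, which had 0 reads in both native libraries. Hspa4l met the minimum for testing through its MMP13 values alone, so its points carry no weight as a result.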

How the data were processed

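The authors deposited a single table with a column per library. The submitters' processing notes name bcl2fastq, TopHat and DESeq without versions, and rat build rn5; no gene counter, annotation, strand setting or treatment of molecular identifiers is stated for it. The deposited values are a normalised signal, gene counts divided by 1 size factor per library. Whole reads could be recovered, with 100% of values within 0.01 of a whole read in each library. Genes with at least 5 units in at least 2 libraries (7284) were tested with limma 3.58.1 in R 4.3.3 on log2(units + 1), a scale that understates changes of low genes, with an intensity trend, all 6 libraries and no replicate block. The prior degrees of freedom were infinite, so standard errors come from genes of like level. On recovered reads, edgeR 4.0.16 (quasi-likelihood) and DESeq2 1.42.0 served as alternatives, beside other pseudocounts, filters, scalings, fits and left-out libraries. Scripts were tested on simulated data. Replicates differed by more than sampling noise (chi-square per degree of freedom 2.10 to 2.54). The genes, lists and tests were chosen with earlier results of these data known. All 10 genes are described. Of each further list, every called gene and the 2 with the smallest unadjusted p against native matrix are named, and nearest patterns are given for the gene of the highest mean and that of the smallest p.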

Additional observations from a re-analysis of the deposited data

How the results depend on the processing

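Of 720 recomputed log2 folds of the 10 genes, 679 kept their direction and side of the threshold, 23 kept only their direction and 18 turned. The cause was not tested. Changing only the filter, the trend, the block or libraries outside the groups compared leaves a fold as it was. Its direction could not turn in those settings, so the first count overstates stability. Folds to which DESeq2 gave no adjusted p were counted as keeping their side. Only Hspb1 had passed as reported, for MMP13 against native and for both treated matrices averaged. All 23 folds that kept only their direction were those of Hspb1 in these comparisons. Folds that had not passed could keep their side only by staying uncalled, so 679 is no measure of how stable the calls are. For MMP13 against native, 20 genes were higher as reported, 12 without a filter, 7 with TMM scaling, 0 without the trend, 6 with only the groups compared, and 5 to 30 with a library left out. There 10 genes were lower as reported, 3 with a pseudocount of 0.5, 5 with a pseudocount of 5, 1 without a filter, 1 with TMM scaling, 0 without the trend, 0 with only the groups compared, 6 by edgeR, 5 by DESeq2, and 0 to 24 with a library left out. The replicate block gave 5 lower genes and 0 of the 10 genes higher (Hspb1 adjusted p = 0.0539). Over the 7284 tested genes, deviations of libraries with the same replicate number were hardly correlated (-0.072 to 0.0059). Such a correlation over all genes cannot decide whether these libraries were paired, and pairing in single genes was not tested. Of the 10 genes, 1 was higher as reported and 0 with either pseudocount, no filter, TMM scaling, no trend, only the groups compared, or entries with identical reads counted once (chosen after seeing the data), and 0 to 0 with a library left out. For MMP1 against native, 10 genes were higher as reported, 3 with TMM scaling, 0 without the trend, 5 with only the groups compared, 1 by DESeq2, and 3 to 15 with a library left out. There 1 gene was lower as reported, 3 with quantile scaling, 0 without a filter, with TMM scaling, without the trend, with only the groups compared or by DESeq2, and 0 to 4 with a library left out. For MMP13 against MMP1, 3 genes were higher as reported, 0 without the trend, 1 with only the groups compared, 1 by DESeq2, and 1 to 4 with a library left out; 0 were lower as reported and 0 to 23 with a library left out. For both treated matrices against native, 38 genes were higher as reported, 20 without a filter, 12 with TMM scaling, 0 without the trend, and 5 to 31 with a library left out. There 9 were lower as reported, 5 without a filter, 14 with quantile scaling, 5 with TMM scaling, 0 without the trend, 19 by edgeR, and 0 to 8 with a library left out. Of the 10 genes, 1 was higher as reported and 0 without a filter, with TMM scaling, without the trend, and 0 to 0 with a library left out.

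Among single genes, Hsph1 in MMP1 against native turned with TMM scaling (-0.040) and by DESeq2 (-0.011), and Hspa8 in MMP13 against MMP1 turned with TMM scaling (0.014). With a library left out, signs turned within these ranges of log2 fold. For MMP13 against native, Dnaja1 ran from -0.14 to 0.10. For MMP1 against native, Hsph1 ran from -0.18 to 0.22 and Dnajb1 from -0.94 to 0.29. For MMP13 against MMP1, Hspa8 ran from -0.15 to 0.11, Hsp90aa1 from -0.11 to 0.0088, Dnajb1 from -0.11 to 1.13 and Hspa4 from -0.39 to 0.22. For both treated matrices against native, Hsph1 ran from -0.36 to 0.039, Dnajb1 from -0.38 to 0.24 and Dnaja1 from -0.064 to 0.18. The difference in the share of Dnajb1 ran from -2.35 to 2.36 percentage points. Values of Hspa8 rest on 13 to 35 reads per library, which limits their precision.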
